A study of Mus musculus with 6 samples.

Results

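The genes described here encode the proteins of the cytosolic ribosome. They were chosen by symbol: Rpl or Rps followed by a number, with Rplp0, Rplp1, Rplp2 and Rpsa, among protein-coding genes only. Pseudogenes, the S6 kinases (Rps6k) and Rps19bp1 were not taken. This gave 84 of the 39179 genes in the files, 52 of the large and 32 of the small subunit.

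The ribosome joins a large and a small subunit, each built of ribosomal RNA and of proteins made from separate, highly expressed genes. Many mRNAs of these genes begin with a 5' terminal oligopyrimidine (5'TOP) tract, through which their translation is controlled together. Abundant mRNAs of this kind have often been copied back into the mouse genome without introns. Such processed pseudogenes keep much of the parent's coding sequence, so a short fragment of a ribosomal protein mRNA may match several places.

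Polyadenylated RNA was sequenced from B16-F10 cells, a mouse melanoma line grown in culture, in 3 libraries labelled Sirpa-wild type (Sirpa-WT) and 3 labelled Sirpa-knockout (Sirpa-KO). Sirpa encodes SIRPα, a membrane receptor that binds CD47, and the comparison addresses steady-state expression with and without it. One label field gives the cell line as Pmel and the tissue as tumor, whereas the series text describes cultured B16-F10 cells. The labels name no treatment or time, and do not say whether a genotype is 1 clone or whether replicates were separate cultures, so a p-value here reflects only how these libraries vary.

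To show how alike these genes and their copies are, 60 bases of coding sequence were set beside the matching stretch of the pseudogene, for the parents of the 5 pseudogenes with the most counts, for Rpl10a, whose copy is described with the genotype comparison, and for Rps12, which is among the genes that fell there. Each stretch of the gene spans a splice junction, with 30 bases on either side, whereas the pseudogene holds it as 1 unbroken piece. Among junction stretches under a fixed ceiling of differences, the one with the most was taken. The number of differences shown is thus set by that choice and does not measure the likeness of the whole pair. Sequences are from GENCODE mouse release 21 transcripts on GRCm38, read 5′ to 3′, with capitals at the positions where the members of a pair differ.

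The Rps3a1 and Rps3a2 stretches differed at 2 positions. Rps3a1 encodes a small subunit protein. Its stretch lies at chr3:86138081-86138110 and chr3:86138483-86138512 (- strand), and that of the pseudogene at chr14:88123106-88123165 (- strand).
Rps3a1: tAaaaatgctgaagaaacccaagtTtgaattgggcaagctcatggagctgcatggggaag
Rps3a2: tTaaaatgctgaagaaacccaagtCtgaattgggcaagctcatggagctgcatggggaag

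Rpl6, a large subunit gene, and Gm6136 differed at 1 position. The stretches lie at chr5:121205826-121205855 and chr5:121206667-121206696 (+ strand), and at chr1:86909294-86909353 (- strand).
Rpl6: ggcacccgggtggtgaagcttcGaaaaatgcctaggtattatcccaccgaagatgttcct
Gm6136: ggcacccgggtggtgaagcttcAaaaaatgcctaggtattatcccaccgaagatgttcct

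Rps6, whose protein is the known substrate of the S6 kinases, and Gm11263 differed at 1 position. The stretches lie at chr4:86856327-86856356 and chr4:86856728-86856757 (- strand), and at chr4:79327816-79327875 (+ strand).
Rps6: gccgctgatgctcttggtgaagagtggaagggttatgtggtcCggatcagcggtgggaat
Gm11263: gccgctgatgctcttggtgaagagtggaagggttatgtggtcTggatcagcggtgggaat

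Rps7, a small subunit gene, and Gm6472 differed at 1 position. The stretches lie at chr12:28635458-28635487 and chr12:28635580-28635609 (- strand), and at chrX:152910016-152910075 (- strand).
Rps7: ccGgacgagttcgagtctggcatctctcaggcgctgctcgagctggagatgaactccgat
Gm6472: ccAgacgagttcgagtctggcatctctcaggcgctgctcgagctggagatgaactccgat

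Rpl31, a large subunit gene, and Rpl31-ps8 were identical over the stretch. The stretches lie at chr1:39368226-39368255 and chr1:39370014-39370043 (+ strand), and at chr15:90764520-90764579 (- strand).
Rpl31: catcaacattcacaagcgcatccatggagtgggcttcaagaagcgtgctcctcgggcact
Rpl31-ps8: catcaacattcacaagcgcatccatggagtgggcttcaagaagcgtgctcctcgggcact

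Rpl10a, a large subunit gene, and Rpl10a-ps1 were also identical. The stretches lie at chr17:28328856-28328885 and chr17:28328967-28328996 (+ strand), and at chr1:64994495-64994554 (- strand).
Rpl10a: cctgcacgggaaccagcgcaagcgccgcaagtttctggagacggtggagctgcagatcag
Rpl10a-ps1: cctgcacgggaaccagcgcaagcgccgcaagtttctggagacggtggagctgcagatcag

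Rps12, a small subunit gene, and Rps12-ps5 differed at 5 positions. The stretches lie at chr10:23785244-23785273 and chr10:23785576-23785605 (- strand), and at chr7:30263559-30263618 (+ strand).
Rps12: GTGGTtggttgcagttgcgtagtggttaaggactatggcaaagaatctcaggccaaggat
Rps12-ps5: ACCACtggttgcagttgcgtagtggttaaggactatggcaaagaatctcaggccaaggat

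Sirpa itself had 12, 7 and 3 counts in the Sirpa-WT libraries. The libraries labelled Sirpa-KO had 1584 counts in replicate 1, 6 in replicate 2 and 6 in replicate 3, so this gene did not check the labels. Total counts were 338824 to 411695 in 5 libraries, called shallow here, and 29877270 in Sirpa-KO replicate 1, called the deep library. Levels below are in CPM, a count divided by its library's total and scaled to the same sum in every library, and 1 count of a shallow library is worth 2.43 to 2.95 CPM. Processed pseudogenes took 26.5 to 29.7% of all counts in the shallow libraries and 0.177% in the deep one. Summed CPM of 9 melanocyte markers was 13553 to 20110 in the shallow libraries and 18027 in the deep one, with all 9 detected. Of other cell types, 6 leukocyte markers summed to 12.1 to 32.6 CPM and 3.08 CPM (Cd3e at 0 in all 6 libraries), 5 fibroblast markers to 0 to 13.6 and 5.99 CPM (Dcn at 0), 3 endothelial markers to 0 and 0.201 CPM (Cdh5 and Kdr at 0), and 2 keratinocyte markers to 0 to 2.95 and 0.569 CPM. The part of depth and of whatever sets the deep library apart in the results below was not tested, so each result is given with and without that library.

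Ribosomal pseudogenes held more counts than the genes themselves in every shallow library and almost none in the deep one. By sequence, 280 pseudogenes were assigned to a parent gene, meaning that at least 50% of their 25-base words occurred in its transcripts, and 69 of the 84 genes had at least 1. These pseudogenes held 65.9%, 64.9% and 63.8% of all gene plus pseudogene counts in the Sirpa-WT libraries, 63.2% and 63.1% in Sirpa-KO replicates 2 and 3, and 0.674% in the deep library (Wilson 95% interval 0.663 to 0.686%, which covers counting error only). The 5 shallow values span fewer than 3 percentage points, and the deep library lies apart from all of them. The Sirpa-KO mean was lower than the Sirpa-WT mean by a difference of -22.6 points over 6 libraries (exact permutation test, 2-sided p = 0.1, the smallest that 3 against 3 allows). Without the deep library the means were 64.9% ± 1.05 (SD, n = 3) and 63.1% ± 0.050 (SD, n = 2). That is a difference of -1.77 points (exact permutation test, 2-sided p = 0.2, where 3 against 2 can reach 0.1).

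In absolute terms the pseudogenes collected 30788, 26725 and 28409 counts in Sirpa-WT. Sirpa-KO replicates 2 and 3 had 25471 and 27141. The deep library had 12665, although it was 82.6 times as deep as the mean shallow library. As a share of the library this was 7.38 to 8.22% in the shallow libraries and 0.0424% in the deep one, a 181-fold difference. Of the 280 pseudogenes, 273 had a count in some shallow library and 245 in the deep one. All 189 pseudogenes with at least 100 counts over the shallow libraries had a higher CPM in each shallow library than in the deep one. That minimum was set on the shallow libraries, so a copy high only in the deep one could not enter. In raw counts the copy of Rpl14 had 1824 in the deep library and 109 to 200 per shallow library.

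**Figure D1:**
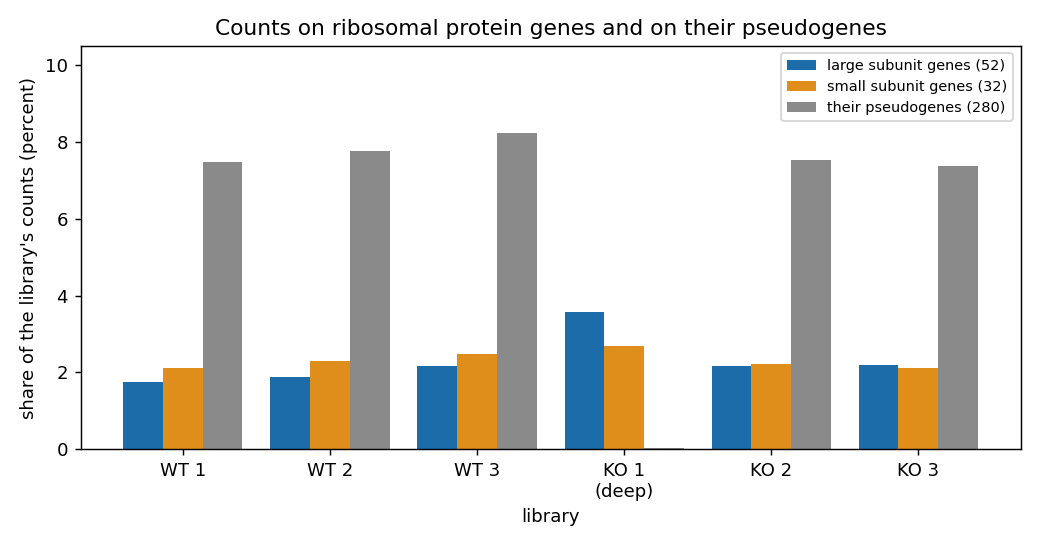
Share of each library's counts (percent, vertical axis from 0) on the 52 large subunit genes, the 32 small subunit genes and their 280 pseudogenes, with 1 group of bars per library and no error bars since each bar is 1 library. The pseudogene bars stand at 7.38 to 8.22% in the 5 shallow libraries and at 0.0424% in the deep library (KO 1), where the large subunit bar is the highest of the 6.

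Copies are named here by their counts over the shallow libraries. The highest was Rps3a2, with 1951, 1601 and 1634 counts in Sirpa-WT, 1428 and 1504 in Sirpa-KO replicates 2 and 3, and 39 in the deep library. Its parent Rps3a1 had 147, 145 and 164 counts in Sirpa-WT, 151 and 190 in shallow Sirpa-KO, and 28499 in the deep library. The order of gene and copy was thus opposite in the shallow and deep libraries, although the stretches shown above differ at only 2 of 60 positions. For Gm6136, the copy of Rpl6, the counts were 1362, 1154 and 1246 in Sirpa-WT, 1099 and 1124 in shallow Sirpa-KO and 167 in the deep one. For Gm11263, the copy of Rps6, they were 1248, 945 and 1052, then 902 and 897, and 12 in the deep library. Both again had more counts in each shallow library than in the far deeper one. Gm6472, the copy of Rps7, gave 1072, 992 and 1062 counts in Sirpa-WT, 897 and 937 in shallow Sirpa-KO and 342 in the deep one. Rpl31-ps8 gave 1121, 993 and 988, then 915 and 938, and 177 in the deep library.

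Families differed widely in how many of their counts lay on copies. Over the shallow libraries 50 genes had fewer counts than their pseudogenes, and in the deep library none did. Rpl31 had the highest pseudogene share, 95.9% over the shallow libraries and 1.24% in the deep one, from 8 copies. Rps2, a small subunit gene with 14 copies, had 94.9% and 0.335%, and Rpl37a, a large subunit gene with 3 copies, 93.4% and 2.01%. Rpl21 had the most copies, 24, with 75% and 0.418%. The share was lower in the deep library in 68 of the 69 families. The exception was Rpl22l1, a paralog of Rpl22, at 0 in the shallow libraries and 0.131% in the deep one. The highest share in the deep library, 35.4%, belonged to Rpl24, which had only 440 counts there. Its annotated exons overlap those of Gm28037, which is listed at 0 in all 6 libraries.

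**Figure D2:**
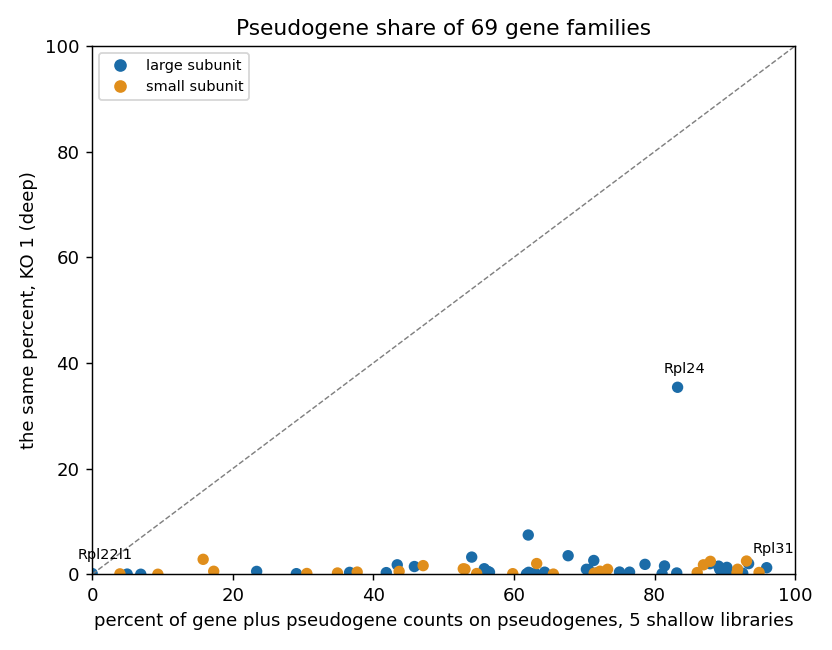
Percent of gene plus pseudogene counts that lie on pseudogenes in the pooled shallow libraries (horizontal axis) and in the deep library KO 1 (vertical axis), 1 point per family for the 69 families with a pseudogene, with a dashed line of equality. All points but Rpl22l1 lie under the line, and Rpl24 at 35.4% is the highest on the vertical axis.

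Pseudogene counts were low in the deep library whether or not the copy matched its parent perfectly. The 21 pseudogenes whose every 25-base word occurs in the parent summed to 9547 ± 717 CPM in the shallow libraries (SD, n = 5) and 72.0 CPM in the deep one, a 133-fold difference. Those sharing 50 to 75% of their words, 146 in number, differed 442-fold, and 231 that share 25 to 50% differed 658-fold. The folds do not follow the share of words in order, since the 33 copies sharing 90 to 100% differed 81.3-fold and the 80 sharing 75 to 90% differed 153-fold. The 607 pseudogenes that share some words but under 25% differed 128-fold, close to the value of the perfect copies. Ribosomal pseudogenes made up 26 to 28% of the counts on all 4566 processed pseudogenes in the shallow libraries and 23.8% in the deep one, so their share of that class moved far less than the class did.

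The summed level of the large subunit genes was higher in the deep library than in any shallow one, and that of the small subunit genes was only slightly so. The 52 large subunit genes summed to 17542, 18888 and 21653 CPM in Sirpa-WT, 35636 CPM in the deep library and 21539 and 21900 CPM in Sirpa-KO replicates 2 and 3. The deep value was 1.76 times the mean of the shallow libraries, or 0.81 on the log2 scale, and above every one of them. The 32 small subunit genes summed to 21079, 23080 and 24903 CPM in Sirpa-WT, 26791 CPM in the deep library and 22286 and 21267 CPM in Sirpa-KO replicates 2 and 3. Here the deep value was 1.19 times the shallow mean, and the shallow Sirpa-KO values fell inside the Sirpa-WT range. When pseudogene counts were added to those of the genes, both gaps turned to -0.76 and -1.13 on the log2 scale. On the protein-coding total the small subunit gap was -0.25 and the large one 0.31.

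Between genotypes neither sum differed beyond the spread of its libraries. Over 6 libraries the log2 difference of Sirpa-KO from Sirpa-WT was 0.41 for the large subunit (exact permutation test, 2-sided p = 0.2) and 0.023 for the small subunit (exact permutation p = 0.9). Without the deep library these were 0.17 (exact permutation p = 0.3) and -0.077 (exact permutation p = 0.5), with Sirpa-WT means of 19361 ± 2096 and 23020 ± 1913 CPM (SD, n = 3) and shallow Sirpa-KO means of 21720 ± 255 and 21776 ± 721 CPM (SD, n = 2). The direction of the small subunit difference changed when the deep library was left out. With pseudogene counts added, the differences over 6 libraries were -0.22 for the large and -0.46 for the small subunit.

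The ratio of small to large subunit counts was lowest in the deep library, and 1 gene, Rpsa, took a large share of the small subunit counts in the others. Small subunit counts were 1.20, 1.22 and 1.15 times the large subunit counts in Sirpa-WT, 1.03 and 0.971 times in Sirpa-KO replicates 2 and 3, and 0.752 times in the deep library. Rpsa, which encodes a small subunit protein also known as the laminin receptor precursor, held 36.3%, 34.9% and 34.1% of small subunit counts in Sirpa-WT, 30.3% and 30.2% in shallow Sirpa-KO, and 8.80% in the deep one. Without Rpsa the ratios were 0.765, 0.796 and 0.758 in Sirpa-WT, 0.721 and 0.677 in shallow Sirpa-KO and 0.686 in the deep one.

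Levels were spread more unevenly over the genes in the shallow libraries than in the deep one. Length was that of the shortest protein-coding transcript with a coding sequence at least as long as the main one. Per kilobase of mRNA, the coefficient of variation over the 79 genes that passed the count filter was 130 to 141% in Sirpa-WT. It was 113% and 108% in shallow Sirpa-KO and 62.6% in the deep library. Rps20, with a length of 3706 bases, was the lowest of these genes in each shallow library. The part of the transcript choice in the spread was not tested. In Sirpa-WT the 3 highest small subunit genes were Rpsa at 5043 ± 261, Rps12 at 4871 ± 375 and Rps28 at 3898 ± 366 CPM per kilobase (SD, n = 3). The first pair did not differ beyond their spread. The 3 highest large subunit genes were Rpl7a at 2282 ± 72, Rpl32 at 2034 ± 135 and Rpl37 at 1879 ± 264 CPM per kilobase (SD, n = 3). In the deep library Rpl32 led at 4592, followed by Rpl41 at 2768 and Rplp1 at 2720 CPM per kilobase. The 6 highest genes of each library held 34.7 to 42.9% of the summed per-length level in the shallow libraries and 20.4% in the deep one. Across the 79 genes, which share their libraries, Pearson's r between log2 CPM values lay at 0.964 to 0.981 for pairs of shallow libraries and at 0.657 to 0.703 for pairs with the deep library.

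**Figure D3:**
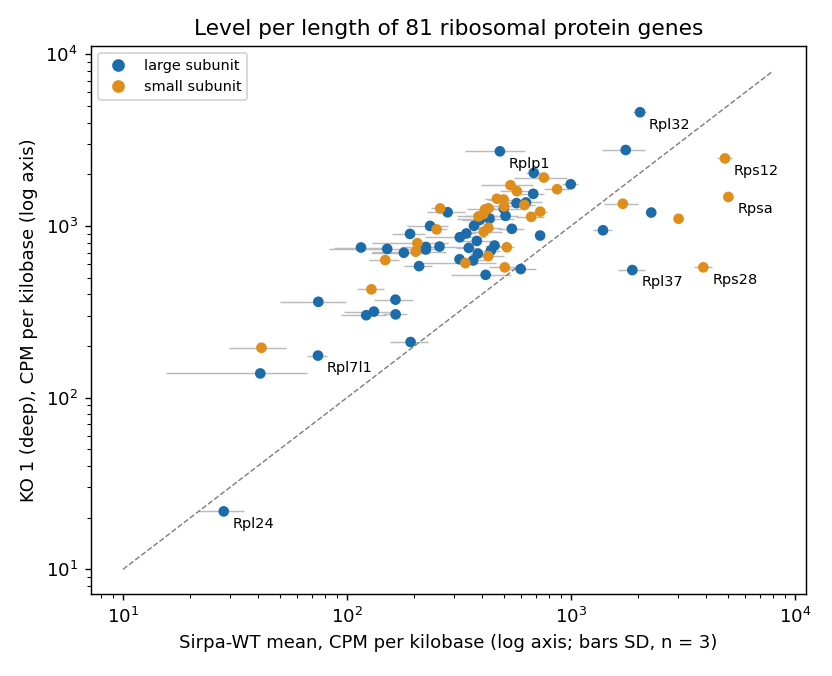
Level of each gene per kilobase of mRNA in the Sirpa-WT libraries (mean, horizontal bars SD, n = 3) and in the deep library KO 1, on 2 log axes in CPM per kilobase, with a dashed line of equality. Most points lie above the line; Rpsa, Rps12, Rps28 and Rpl37 lie below it.

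Gene by gene, most ribosomal protein genes were higher in CPM in the deep library. Protein-coding genes as a whole took 67.8 to 71.1% of all counts in the shallow libraries and 98.5% in the deep one. Gaps of single genes are given in CPM alone. The gap of the deep library, the log2 ratio of its CPM to the mean of the 5 shallow libraries, is 1 library's value and has no test. Of the 79 genes, 46 (58.2%) were more than 2-fold above and 4 (5.06%) more than 2-fold below. Among all 5397 genes of the fit 37.0% were more than 2-fold above and 34.6% below, and among the protein-coding ones 46.4% and 18.1%. The median gap was 1.15 over the ribosomal protein genes, 0.65 over all genes and 0.93 over protein-coding genes. The deep library lay above every shallow one in 67 genes, below every one in 7 (Rpl30, Rpl37, Rpl7a, Rps12, Rps15a, Rps28 and Rpsa) and within their range in 5 (Rpl15, Rpl27, Rpl5, Rps16 and Rps18). The share of all genes in these positions was not worked out, so the counts describe these genes only. By sign, the gap was above 0 in 71 ribosomal protein genes and below 0 in 8. Among protein-coding genes it was above 0 in 2930 and below 0 in 1342.

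Genes of the ribosomal stalk, which recruits elongation factors, had positive gaps. Rplp1 had the highest of all ribosomal protein genes, with 158, 291 and 272 CPM in Sirpa-WT, 168 and 188 CPM in Sirpa-KO replicates 2 and 3, and 1357 CPM in the deep library, a gap of 2.66 or 6.30-fold. Rplp2 had 80.2, 148 and 98.4 CPM in Sirpa-WT, 100.3 and 136 CPM in shallow Sirpa-KO and 319 CPM in the deep one. Rplp0 had 699.5, 788 and 839 CPM, then 977 and 987 CPM, and 1844 CPM in the deep library. In each of these genes the deep library exceeded all 5 others. In Rplp0 the shallow Sirpa-KO values lay above the Sirpa-WT ones, and in Rplp1 and Rplp2 the shallow groups overlapped.

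The other high gaps were those of Rpl36 (2.53), Rpl37a (2.46), Rps2 (2.33) and Rps20 (2.18). Rpl36, a large subunit gene, had 31.6, 58.2 and 83.9 CPM in Sirpa-WT, 29.5 and 40.8 CPM in shallow Sirpa-KO and 281 CPM in the deep one. Rps20, a small subunit gene with no assigned pseudogene, had 104, 169 and 188 CPM, then 183 and 155 CPM, and 724 CPM in the deep library. Gaps of this size were found in genes with and without an assigned pseudogene. That label rests on the cutoff, which 280 pseudogenes passed at 50% of words and 511 at 25%. The part of copies in the gap was not tested. The 67 tested genes with an assigned pseudogene had a median gap of 1.15 and the 12 without one 1.10. Across the 79 genes Spearman's rho with the gap was -0.077 for the number of copies and 0.25 for the shallow pseudogene share, a description over genes that share the same 6 libraries.

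With their copies added, most families were lower in the deep library. Rps6 had a gap of 0.45 alone and -3.13 with its 6 pseudogenes, and Rps3a1 1.11 alone and -2.48 with its 3. Rpl31 had 1.97 alone and -2.62 with its copies. Of the 81 genes with a gap, 51 were below 0 with pseudogenes included and 30 above, and the median was -0.50.

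Genes whose proteins also act outside the ribosome did not share 1 level of gap. Rpl5 and Rpl11, whose proteins bind Mdm2 in p53 surveillance, had gaps of 0.064 and 0.88. For Rpl5 the Sirpa-WT values were 306, 433 and 440 CPM, the shallow Sirpa-KO values 431 and 451 CPM and the deep value 431 CPM, so all groups overlapped. Rps27a, which encodes a fusion of ubiquitin with a small subunit protein, had a gap of 1.45. Of the paralogs, Rps27l had 1.58, Rpl7l1 0.86 and Rpl36al 0.68.

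The lowest gaps belonged to Rps28 (-2.56), Rpl37 (-1.68), Rpsa (-1.66), Rps15a (-1.39) and Rps12 (-0.88), with Rpl7a (-0.86) next. Their values are given with the genotype comparison, which shares the shallow libraries with the gap.

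**Figure D4:**
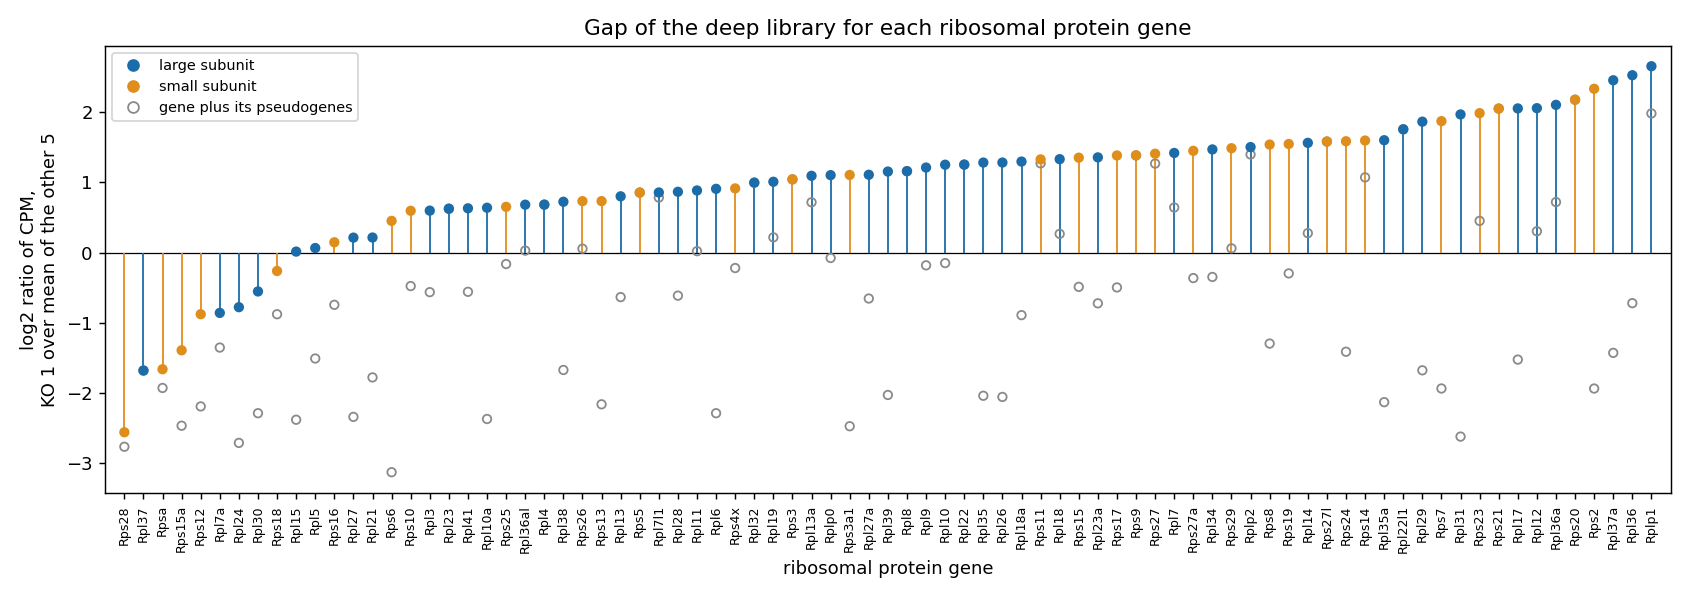
Gap of the deep library KO 1 for each ribosomal protein gene with a value, as the log2 ratio of its CPM to the mean of the 5 shallow libraries (vertical axis), in order of the gap; filled points are the genes alone, open points the genes with their pseudogenes added. Filled points run from -2.56 (Rps28) to 2.66 (Rplp1), and many open points lie below 0.

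Over all 6 libraries no ribosomal protein gene passed the genotype test. edgeR's quasi-likelihood test with Benjamini-Hochberg adjustment tested 5397 genes, of which 0% were called at 0.05, and 79 of the 84 ribosomal protein genes. Their smallest adjusted p was 0.574, 1 had an unadjusted p under 0.05, and DESeq2 called 0 of them. The spread that this fit estimated, a biological coefficient of variation of 75.8%, was 7.25% without the deep library. Every Sirpa-KO library lay above every Sirpa-WT library in 25 of the 79 genes (31.6%), against 20.4% of all genes tested, and below in 6 (7.59%), against 10.2%. The median log2 difference was 0.52 over ribosomal protein genes and 0.11 over all genes.

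Without the deep library 6 of the 79 genes fell in Sirpa-KO, 1 rose and 72 did not pass. Of all 5510 genes tested 5.84% were called, 4.52% lower and 1.32% higher. Among the ribosomal protein genes 7.59% fell and 1.27% rose. Of the 4295 protein-coding genes tested, 143 fell and 67 rose, a smaller falling share than among the ribosomal protein genes. Whether these shares differ was not tested. In 25 genes both Sirpa-KO libraries lay above all Sirpa-WT libraries, against 26.3% of all genes tested, and in 6 below, against 11.8%. These 6 were the ones that fell. The median log2 difference was 0.079, against 0.013 over all genes. Scaling by library size alone, which moved the median of all genes to 0.15, called 15 ribosomal protein genes, 13 higher and 2 lower, so the direction of the calls as a group rests on the scaling. The count also moved with single libraries: it was 11 without Sirpa-WT replicate 1, 4 without replicate 2 and 14 (10 of them higher) without replicate 3. It was 3 without Sirpa-KO replicate 2 and 2 without Sirpa-KO replicate 3.

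Of the genes that fell, 4 encode small subunit proteins. Coordinates are those of the gene on GRCm38. Rpsa (chr9:120127766-120132369, + strand, 7 exons) had 7654, 8051 and 8488 CPM in Sirpa-WT, 6750 and 6430 CPM in Sirpa-KO replicates 2 and 3 and 2359 CPM in the deep library. The groups did not overlap, and the log2 difference without the deep library was -0.41 ± 0.08 (SE, edgeR adjusted p = 3.35e-05). Rps28 (chr17:33819027-33824562, - strand, 4 exons) had 950, 1146 and 1074 CPM in Sirpa-WT, 717 and 707 CPM in shallow Sirpa-KO and 155.5 CPM in the deep one. Its difference was the largest fall that passed, -0.69 ± 0.11 (SE, edgeR adjusted p = 3.22e-07). Exons of Kank3 overlap it, and the counting used no strand. These 2 genes fell in all 12 settings tried, over which their differences ranged from -0.47 to -0.27 and from -0.76 to -0.55.

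Rps12 (chr10:23785211-23787195, - strand, 6 exons) had 2072, 2234 and 2416 CPM in Sirpa-WT, 1895 and 1844 CPM in shallow Sirpa-KO and 1137 CPM in the deep one, with a difference of -0.38 ± 0.09 (SE, edgeR adjusted p = 0.00221). Rps15a (chr7:118104378-118116186, - strand, 5 exons) had 1865, 2004 and 1933 CPM, then 1848 and 1607 CPM, and 705 CPM in the deep library, with a difference of -0.28 ± 0.09 (SE, edgeR adjusted p = 0.0476). The groups of both genes did not overlap, but the margin in Rps15a was small. Rps12 was called in 10 of 12 settings, not with library size alone (edgeR adjusted p = 0.0784). Rps15a was called in 5, and library size alone (0.353), no filter (0.0819), DESeq2 (0.0885) and protein-coding genes only (0.0744) ended its call. Leaving out Sirpa-KO replicate 3 ended the call for Rps12 (edgeR adjusted p = 0.111, range over settings 9.49e-05 to 0.111). Leaving out Sirpa-WT replicate 2 or either shallow Sirpa-KO library ended that for Rps15a (0.07 to 0.527, range over settings 0.0176 to 0.527).

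The other genes that fell encode large subunit proteins. Rpl37 (chr15:5116613-5119140, + strand, 4 exons), which has no assigned pseudogene, had 1513, 1382 and 1812 CPM in Sirpa-WT, 1343 and 1365 CPM in shallow Sirpa-KO and 462 CPM in the deep one, a difference of -0.33 ± 0.10 (SE, edgeR adjusted p = 0.0195). Leaving out Sirpa-WT replicate 3 or either shallow Sirpa-KO library ended the call for Rpl37 (edgeR adjusted p 0.174 to 0.201), as did DESeq2 (adjusted p = 0.0846) and library size alone (0.214), so that it was called in 7 of 12 settings. Rpl7a (chr2:26910764-26913318, + strand, 8 exons) had 2050, 2045 and 2162 CPM, then 1783 and 1890 CPM, and 1094 CPM in the deep library, a difference of -0.30 ± 0.09 (SE, edgeR adjusted p = 0.0259). Leaving out either shallow Sirpa-KO library, Sirpa-WT replicate 2 or Sirpa-WT replicate 3 ended the call for Rpl7a (adjusted p 0.0518 to 0.281). Library size alone (edgeR adjusted p = 0.271) and protein-coding genes only (0.0515) did so too, and it was called in 6 of 12 settings.

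The gene that rose was Rpl7l1 (chr17:46773907-46782656, - strand, 7 exons), a paralog of Rpl7. It had 97.2, 87.3 and 107 CPM in Sirpa-WT, 159 and 185 CPM in Sirpa-KO replicates 2 and 3 and 230.2 CPM in the deep library, so it was higher in all 3 Sirpa-KO libraries. The difference without the deep library was 0.71 ± 0.21 (SE, edgeR adjusted p = 0.02). It rests on 30 to 68 counts per shallow library, and leaving out Sirpa-WT replicate 2 or either shallow Sirpa-KO library ended the call (adjusted p 0.0848 to 0.332). The replicate block (edgeR adjusted p = 0.054) and the fit with no filter (0.0914) ended it too, and DESeq2 gave no adjusted p, so Rpl7l1 was called in 6 of 12 settings.

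**Figure D5:**
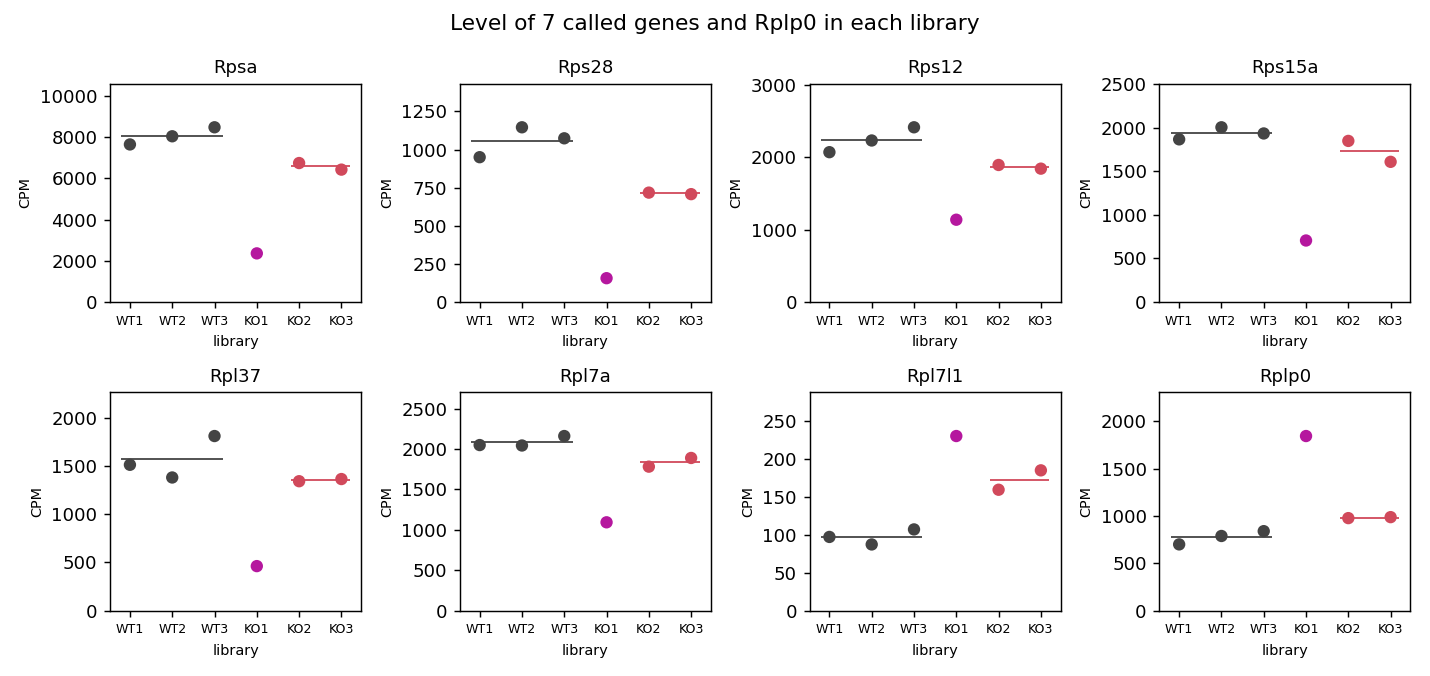
Level in CPM (vertical axes from 0, 1 panel per gene) in each of the 6 libraries of the 7 genes that passed without the deep library and of the stalk gene Rplp0; lines mark the mean of the 3 Sirpa-WT and of the 2 shallow Sirpa-KO libraries. In Rpsa, Rps28, Rps12, Rps15a, Rpl37 and Rpl7a the KO 1 point is the lowest of the 6, and in Rpl7l1 and Rplp0 it is the highest.

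The 6 genes that fell without the deep library are those with the 6 lowest gaps of that library. The comparisons share the shallow libraries, so the values are set side by side only. Rps28 had -0.69 between genotypes and -2.56 as a gap, Rpl37 -0.33 and -1.68, Rpsa -0.41 and -1.66, Rps15a -0.28 and -1.39, Rps12 -0.38 and -0.88, and Rpl7a -0.30 and -0.86.

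The 5 genes not tested had few counts. Rpl24 had 8, 8 and 5 counts in Sirpa-WT, 17 and 7 in Sirpa-KO replicates 2 and 3 and 440 in the deep library. Rpl22l1 had 16, 5 and 5, then 7 and 9, and 2281 in the deep library. Among other paralogs, Rpl10l had 0 to 2 counts and Rpl39l 0 to 3 in the shallow libraries, and both had 0 in the deep library, which allows up to 0.1 CPM. Rpl3l was at 0 in every shallow library, which allows up to 7.29 to 8.85 CPM, and had 2 counts in the deep one.

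Of 248 ribosomal pseudogenes tested without the deep library, 20 fell and 2 rose in edgeR's test, beside 4.52% lower and 1.32% higher among all genes tested (8.06% and 0.806% of the pseudogenes). Of all 5510 genes tested 249 fell, but of the 4295 protein-coding ones only 143 did. Genes of other types thus fell more often than protein-coding ones. Over 6 libraries none of 240 ribosomal pseudogenes was called. The copies with the most counts that fell were Rps3a2, at -0.30 ± 0.08 (SE, edgeR adjusted p = 0.00979), and Gm11263, at -0.33 ± 0.09 (SE, edgeR adjusted p = 0.00826). Rpl10a-ps1, identical to Rpl10a over the stretch shown above, fell by 0.54 on the log2 scale (edgeR adjusted p = 2.07e-06), whereas Rpl10a itself had a difference of 0.22 (adjusted p = 0.449). How reads of such identical stretches were divided between gene and copy was not tested. The risen copies were Rpl14-ps1 at 0.47 and Rpl9-ps4 at 1.72, the latter on 60 counts over the shallow libraries.

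Genes that work with the ribosome were read from 3 lists in the fit without the deep library, in which 1.32% of all genes tested were higher and 4.52% lower, with a median log2 difference of 0.013. Of 39 ribosome biogenesis genes, 33 were tested, 5 rose, 0 fell and 28 did not pass, with a median log2 difference of 0.44. They were Ncl, which encodes nucleolin (0.52), Npm1, which encodes nucleophosmin (0.44), Nop58, a box C/D snoRNP protein (0.69), the helicase gene Ddx21 (0.93) and Mybbp1a (0.80). Of 77 mitochondrial ribosomal protein genes, whose products form the separate ribosome of mitochondria, 40 were tested, 2 rose (Mrpl35 at 0.60 and Mrpl42 at 0.97) and 2 fell (Mrpl14 at -1.06 and Mrpl57 at -0.89), with a median of -0.04. Of 20 other 5'TOP translation genes in the files, 18 were tested, 2 rose (Nap1l1 at 0.62 and Hnrnpa1 at 0.45) and 2 fell (the elongation factor gene Eef2 at -0.38 and Btf3 at -0.35), with a median of 0.26. Some calls in these lists rest on few counts per shallow library. These were 10 to 35 for Mrpl42, 14 to 33 for Mrpl14, 16 to 37 for Mrpl57 and 18 to 46 for Mybbp1a. Whether the list calls hold under the other settings is not given here. The ribosomal protein genes had a median of 0.079 in the same fit, and over 6 libraries no gene of these lists was called. The median gap of the deep library was 1.32 for the biogenesis genes, 0.63 for the mitochondrial ribosomal proteins and 1.12 for the other 5'TOP genes.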

How the data were processed

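RNA of 6 cultured B16-F10 libraries, 3 per genotype, was extracted with RNeasy and prepared with a TruSeq Stranded mRNA kit, per the labels' protocols. The authors deposited raw counts of fragments per gene, made with featureCounts 1.5.1 in paired-end mode over exons of the Ensembl release 75 annotation of GRCm38 and without a strand option, per the file headers. STAR 2.6.0 and Subread are named in the submitters' processing notes. How multiply matching reads were aligned is not given in the sources used here, so counts of genes with near-identical copies are uncertain. Symbols, types and sequences came from GENCODE mouse release 21 by gene identifier, which matched 37693 of 39179.

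The genes, lists, tests and most alternatives were chosen with earlier results of these data known. A pseudogene was assigned to the gene holding at least 50% of its 25-base words; 25%, 75% and assignment by symbol were alternatives. Genes were filtered with filterByExpr (minimum count 10), scaled by TMM and tested with edgeR 4.0.16 in R 4.3.3 (quasi-likelihood, robust, 2-sided, Benjamini-Hochberg over all genes tested, threshold 0.05), with and without Sirpa-KO replicate 1. Standard errors were derived from the fold change and its F statistic. Sums and shares were compared by exact permutation of libraries. The procedure was tested on simulated data with every library at a shallow depth and a coefficient of variation of 7.25%. The simulation therefore does not cover the 6-library fit, with its deep library and estimated 75.8%. Alternatives were RLE scaling, library size alone, no filter, DESeq2 1.42.0, the replicate number as a block, protein-coding genes only and leaving out each library. Where a Sirpa-KO library is left out of the 5, the lone other one is assumed to vary like Sirpa-WT.

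Named genes were those called, the 5 highest and 5 lowest gaps among genes with a mean of at least 10 counts in the other libraries, the 3 most abundant per length of each subunit, stalk genes, paralogs, Rpsa, Rpl5, Rpl11, Rps6, Rps27a, genes at 0, the 5 pseudogenes with the most counts and called members of the lists; other names were chosen after their values were seen. Shallow replicates of a group differed beyond counting error, so each was used as a library of its own. Floors of 3 counts, 7.29 to 8.85 CPM in the shallow libraries, cover counting error only. Of the listed cell type markers, 1 is not reported here.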

Additional observations from a re-analysis of the deposited data

How the results depend on the processing

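Rpsa and Rps28 kept their direction and call under all 12 settings of the 5-library fit. The number of ribosomal protein genes called, 7 in that fit, was 15 with library size alone, 4 with DESeq2 and 2 to 14 with 1 library left out; over 6 libraries it was 0, and 0 to 7 with 1 library left out, the 7 arising without Sirpa-KO replicate 1. For the sums, the large subunit difference, 0.41, was 0.20 on the protein-coding total, 0.18 with TMM-scaled library sizes, -0.22 with pseudogene counts added and 0.17 to 0.53 with 1 library left out. The small subunit difference was -0.19 on the protein-coding total, -0.21 with TMM-scaled library sizes, -0.46 with pseudogene counts and -0.077 to 0.089 with 1 library left out. The gap of Sirpa-KO replicate 1, 0.81 for the large subunit, was 0.31, 0.46 and -0.76 under the same 3 choices, and for the small subunit, 0.25, it was -0.25, -0.11 and -1.13. The pseudogene share difference was -33.0 to -1.77 points with 1 library left out. The cause of these changes was not tested.

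The replicate numbers share only a label: correlations of same-numbered deviations were 0.024, -0.042 and 0.058, and no same-numbered pair were each other's best match. With the replicate block, 10 ribosomal protein genes were called in the 5-library fit, all lower, 6 of them among the 7, and 0 over 6 libraries. At this depth 5 of the 84 genes could not be tested.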

Other observations

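Rps27rt, a protein-coding retrocopy of Rps27 outside the symbol rule and chosen after its values were seen, had fewer counts in the deep library than in any shallow one. It had 448, 391 and 486 counts in Sirpa-WT, 379 and 366 in Sirpa-KO replicates 2 and 3, and 66 in the deep library, or 2.21 CPM there. Without the deep library its log2 difference was -0.31 ± 0.10 (SE, edgeR adjusted p = 0.046).

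Eef1a1, the most abundant of the other 5'TOP genes, had 26257, 26430 and 25855 CPM in Sirpa-WT, 25618 and 25417 CPM in Sirpa-KO replicates 2 and 3 and 9961 CPM in the deep library. Its level in the deep library was thus below all 5 others, as in Rpsa, and its genotype difference of -0.16 did not pass in edgeR's test (adjusted p = 0.184).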
